A study of Mus musculus with 16 samples.

Results

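The genes described here are 8 transcripts that low oxygen is known to induce: P4ha1, P4ha2, Ldha, Pgk1, Aldoa, Bnip3, Adm and Pdk1. They were found by symbol among the 24040 probes of the authors' normalized table, where 7 of the 8 genes had a total of 12 probes, and Bnip3 was not analysed here. After a filter on dim probes, 10 of the 12 probes and 6 of the 8 genes were tested among 10426 genes. Pdk1 did not pass the filter and is given as values. RNA came from pericytes and endothelial cells that had been sorted out of primary tumours of 67NR cells, a mouse mammary carcinoma line, placed in the mammary fat pad of mice. The hosts, females of BALB/c Ub-GFP stock between 6 and 8 weeks of age, were either wild type or knockout for endosialin (Cd248), a membrane glycoprotein of pericytes and fibroblasts, and the tumours, at 2 to 4 weeks, had a mean size of 10 mm. Pericytes and endothelial cells of each genotype made up 4 groups of 4 arrays. The labels do not state the gate markers, how the knockout allele was made or how many animals stand behind an array, so the p-values reflect the spread among these samples alone, and that spread may be technical.

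Cells sense oxygen through HIF, a transcription factor whose alpha subunits (Hif1a and Epas1) are marked for destruction by prolyl hydroxylases of the Egln family and the Vhl ubiquitin ligase as long as oxygen is present. When oxygen falls, HIF binds short DNA motifs with the core ACGTG or GCGTG and raises genes for glycolysis, vessel growth and matrix modification. Among the 8 genes, Aldoa (aldolase A), Pgk1 (phosphoglycerate kinase) and Ldha (lactate dehydrogenase A) are glycolytic enzymes. Pdk1 is a kinase that inhibits pyruvate dehydrogenase in the mitochondrion, and Bnip3 is a mitochondrial outer membrane protein that takes part in mitophagy. P4ha1 and P4ha2 are catalytic subunits of collagen prolyl 4-hydroxylase, which stabilises the collagen triple helix, and Adm encodes adrenomedullin, a secreted peptide that acts on endothelium.

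Promoter sequences are shown for the genes that differed between the cell types and for Ldha, which did not pass in any comparison. They are the 250 bases before the annotated start, from RefSeq on GRCm38.p6, and capitals mark ACGTG or GCGTG read on either strand, where a palindromic CACGTG counts once on each strand.
P4ha2, chr11:54100674-54100923, plus strand: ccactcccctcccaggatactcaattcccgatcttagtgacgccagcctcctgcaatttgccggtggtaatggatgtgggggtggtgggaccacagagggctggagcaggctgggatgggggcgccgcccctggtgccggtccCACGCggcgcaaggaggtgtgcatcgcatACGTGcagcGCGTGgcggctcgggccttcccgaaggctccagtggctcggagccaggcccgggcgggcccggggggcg
P4ha1, chr10:59323046-59323295, plus strand: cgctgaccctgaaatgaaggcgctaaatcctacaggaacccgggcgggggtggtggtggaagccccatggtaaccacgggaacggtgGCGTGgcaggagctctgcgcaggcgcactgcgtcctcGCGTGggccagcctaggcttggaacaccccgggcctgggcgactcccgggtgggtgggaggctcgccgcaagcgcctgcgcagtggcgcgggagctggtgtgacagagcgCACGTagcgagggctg
Adm, chr7:110627407-110627656, plus strand: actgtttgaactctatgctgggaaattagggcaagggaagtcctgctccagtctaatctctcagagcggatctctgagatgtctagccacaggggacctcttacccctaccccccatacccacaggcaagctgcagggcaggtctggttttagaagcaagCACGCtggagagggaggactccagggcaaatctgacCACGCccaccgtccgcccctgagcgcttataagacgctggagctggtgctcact
Ldha, chr7:46845554-46845803, plus strand: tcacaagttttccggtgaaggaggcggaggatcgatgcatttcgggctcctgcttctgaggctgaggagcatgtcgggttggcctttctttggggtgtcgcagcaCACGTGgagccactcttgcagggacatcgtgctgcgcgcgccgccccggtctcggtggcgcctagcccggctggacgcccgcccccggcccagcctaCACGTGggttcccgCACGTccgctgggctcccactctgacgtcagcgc
The P4ha2 and P4ha1 windows each held 3 matches, 1 of ACGTG and 2 of GCGTG. The Adm window held 2 matches of GCGTG, and the Ldha window, the first of 2 listed for that gene, held 5 matches of ACGTG at 3 places. Aldoa and Pgk1, which also did not pass, are not shown: the 3 Aldoa windows held 0, 1 and 1 matches and the Pgk1 window 2. Over 32851 promoter windows of the same length, 16.6% held ACGTG, 28.2% held GCGTG and 38.6% held either. Of them 16.7% held 2 or more matches, 6.58% held 3 or more and 1.01% held 5 or more. A match describes the letters of the window and is not a measured binding site.

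On the arrays, array medians lay between 7.18 and 7.21 log2, and values ran from 6.58 to 14.5. Arrays of 1 group had Pearson correlations of 0.916 to 0.979 over the tested genes, and arrays of different cell types 0.695 to 0.784. Cd248 measured 10.98 ± 0.21 in pericytes of wild type and 7.09 ± 0.10 in those of knockout (SD, n = 4 each), which matches the labels. The endothelial markers were lower in the pericyte sort for 8 of 8 genes in each genotype, and their mean was at most 7.34 on pericyte arrays against 9.59 to 9.76 on endothelial arrays. The pericyte markers were higher in the pericyte sort for 5 of 9 genes and lower for 1, and Rgs5 still read 8.45 in wild-type endothelial cells. All 7 fibroblast markers were higher in the pericyte sort, with means of 10.07 to 10.77 on pericyte and 6.81 to 6.99 on endothelial arrays. Keratinocyte markers set knockout pericyte replicates 2, 3 and 4 apart, with means of 9.77, 9.70 and 9.29 over 13 genes. Knockout replicate 1 read 7.47, and the wild-type pericytes read 6.88 to 7.71. In bulk RNA of sorted cells, fewer cells of a type and less of a transcript per cell cannot be told apart.

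Pericytes and endothelial cells differed in the collagen hydroxylase subunits and in adrenomedullin, while the 3 glycolytic enzymes did not pass. In wild-type tumours P4ha2 was 2.38-fold and P4ha1 1.29-fold higher in pericytes, and Adm was at least 1.75-fold lower. Thus 2 of 6 tested members were higher and 1 was lower in pericytes, where 17.1% and 19.1% of all 10426 genes were, 36.2% in both directions together. In knockout tumours P4ha2 was 2.00-fold higher and Adm at least 1.56-fold lower, so 1 of 6 was higher and 1 lower, where 17.4% and 18.5% of all genes were, 35.9% together. The median difference of the 6 members was -0.13 in wild type and 0.02 in knockout, against -0.03 and -0.04 over all genes.

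P4ha2, the collagen hydroxylase subunit known from cartilage and bone as well as tumour stroma, read 9.16, 9.09, 9.003 and 9.005 in wild-type pericytes on its brightest probe (ILMN_2777082). Wild-type endothelial cells read 7.72, 8.04, 7.66 and 7.83. Knockout pericytes read 9.30, 8.35, 8.55 and 8.51, and knockout endothelial cells 7.79, 7.87, 7.69 and 7.36. Every pericyte array lay above every endothelial array of the same genotype, as for 16.3% of all genes in wild type and 17.3% in knockout. In wild type the mean was 9.06 ± 0.08 in pericytes and 7.82 ± 0.17 in endothelial cells (SD, n = 4 each), which is 1.25 higher on the log2 scale (SE 0.16, limma, adjusted p = 5.7e-06 by Benjamini-Hochberg). In knockout the means were 8.68 ± 0.43 and 7.68 ± 0.23 (SD, n = 4 each), a difference of 1.00 (SE 0.16, limma, adjusted p = 7.1e-05). A second P4ha2 probe (ILMN_2789562) followed the first over the 16 arrays with a Pearson correlation of 0.99, and was 2.05-fold higher in wild-type and 1.75-fold higher in knockout pericytes. The dimmest P4ha2 probe (ILMN_1255122), annotated to a cDNA clone record, differed by 0.43 in wild type (limma on all kept probes, adjusted p = 0.0236) and by 0.20 in knockout (adjusted p = 0.288).

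P4ha1, the catalytic subunit with the broadest tissue range, showed a smaller measured difference in the same direction. Its probe ILMN_1215502 read 7.71, 7.46, 7.49 and 7.75 in wild-type pericytes and 7.15, 7.39, 7.13 and 7.25 in wild-type endothelial cells. The endothelial values lay near the array median, above it on 2 of 4 arrays, so the size cannot be set against that of P4ha2. The 4 wild-type pericyte arrays all lay above the 4 wild-type endothelial arrays, by a log2 difference of 0.37 (SE 0.13, limma, adjusted p = 0.0309). This call rested on single arrays: without wild-type pericyte replicate 1 or 4, or wild-type endothelial replicate 1, 3 or 4, the difference was 0.32 to 0.38 and the adjusted p lay between 0.0526 and 0.0824 (limma). The other P4ha1 probe (ILMN_1234565) read 7.52, 7.59, 7.65 and 7.51 in wild-type pericytes against 7.10, 7.31, 6.90 and 6.92 in wild-type endothelial cells, and differed by 0.51 (limma on all kept probes, adjusted p = 3.65e-04).
In knockout tumours probe ILMN_1215502 read 7.60, 7.32, 7.59 and 7.29 in pericytes and 7.71, 7.23, 7.28 and 7.01 in endothelial cells, so the groups overlapped. The difference of 0.14 did not pass (SE 0.13, limma, adjusted p = 0.433). The difference between the cell types was not shown to depend on genotype for P4ha1 (-0.23, SE 0.18, limma, adjusted p = 1) or P4ha2 (-0.25, SE 0.23, limma, adjusted p = 1).

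Adm ran the other way. Its probe read 8.31, 8.01, 7.69 and 8.02 in wild-type endothelial cells and 7.80, 8.19, 7.63 and 7.72 in knockout endothelial cells. Pericytes read 7.09, 6.83, 6.79 and 6.91 in wild type and 7.16, 6.92, 6.87 and 6.97 in knockout. All 8 endothelial arrays lay above their array's median and all 8 pericyte arrays below it. Pericyte arrays lay wholly below endothelial arrays for 17.2% of all genes in wild type and 19.4% in knockout. The table used here has no detection calls, so for a group below the median on every array the fold is given as a lower bound, taken against the array medians, here and for other genes. Adm also passed the filter through its endothelial arrays alone. The measured difference of pericytes from endothelial cells was -1.10 in wild type (SE 0.13, limma, adjusted p = 2.06e-06) and -0.86 in knockout (SE 0.13, limma, adjusted p = 3.95e-05). With the keratinocyte marker mean as a covariate the knockout difference was -0.57 and no longer passed (SE 0.24, limma, adjusted p = 0.107). Without knockout pericyte replicates 2, 3 and 4 it was -0.68 (SE 0.22, limma, adjusted p = 0.0402), with the spread of the lone remaining knockout pericyte array taken from the other groups.

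Markers of other cell types moved with these differences. With the P4ha genes, 7 of 7 fibroblast markers were higher in pericytes in each genotype, as were 3 of 4 mast cell markers, with 1 lower, and 1 of 2 lymphocyte markers, Cd3e. Mast cell means ran from 6.78 to 9.91 on wild-type and 6.93 to 9.49 on knockout pericyte arrays, against 7.28 to 7.48 on endothelial arrays. The endothelial means reflect Kit, the marker that was lower in pericytes, at 9.13 in wild-type and 9.27 in knockout endothelial cells. Cpa3, Cma1 and Mcpt4 had endothelial group means of 6.73 to 6.87. With Adm, Fabp4, listed as an adipocyte marker, was higher in endothelial cells, at 10.23 to 11.03 against 8.03 to 8.94 in pericytes. It was the 1 of 4 named adipocyte markers with a probe. Alone it cannot tell adipocyte RNA from expression by the endothelial cells themselves. The 2 tested erythroid markers had means of 7.98 to 8.94 in wild-type endothelial cells and 6.81 to 6.91 in wild-type pericytes. In knockout these means overlapped, at 7.10 to 9.18 and 6.79 to 7.19, with 1 of 2 genes passing. The part of these markers was not tested.

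**Figure D1:**
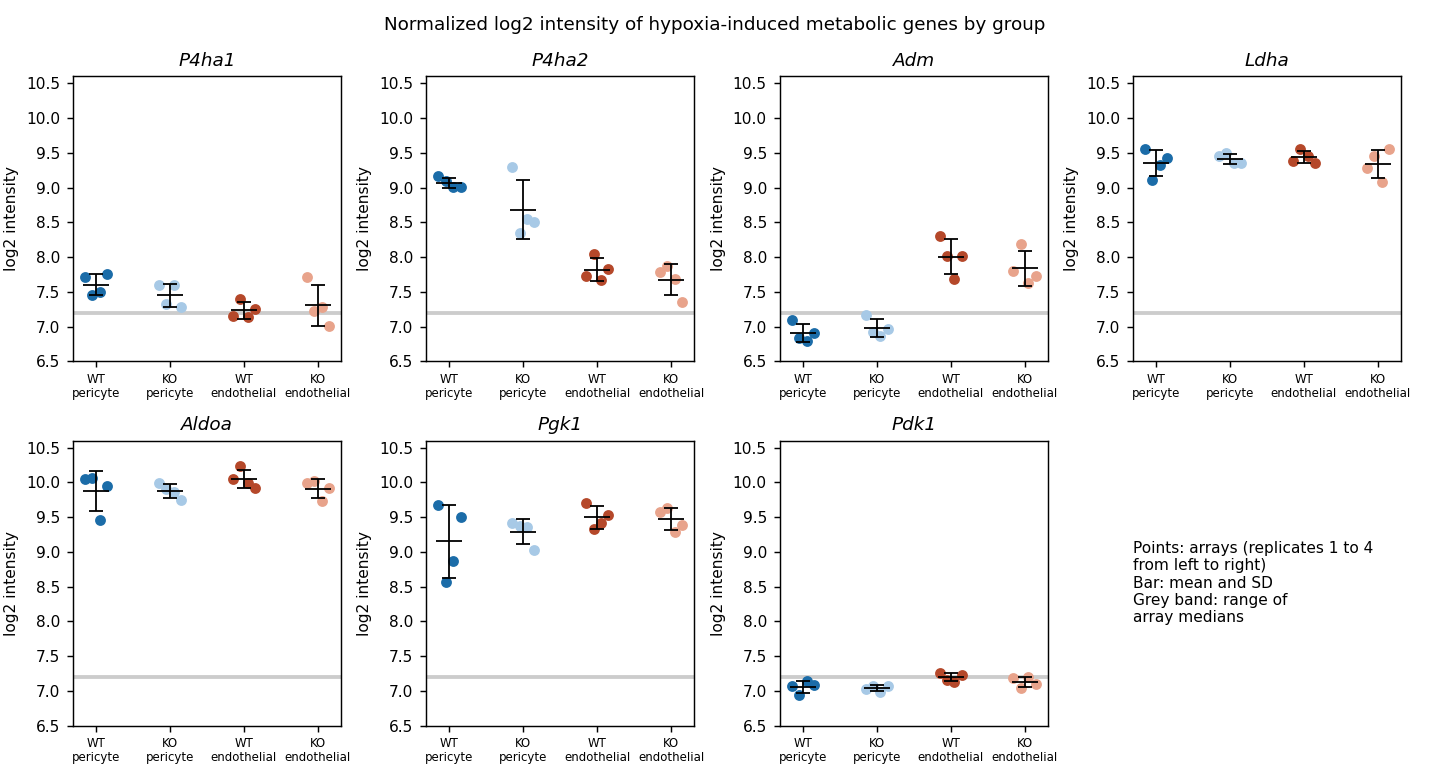
Normalized log2 intensity (y axis) of the 7 measured genes, shown for the probe with the highest mean, in the 4 groups (x axis). Points are arrays, bars are mean and SD of 4, and the grey band spans the array medians of 7.18 to 7.21. P4ha2 lies higher in pericytes, Adm in endothelial cells, and Ldha and Aldoa overlap in all groups.

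The glycolytic enzymes were well above the array median on all 16 arrays and close between the cell types. Ldha, which turns pyruvate into lactate, read 9.55, 9.10, 9.33 and 9.42 in wild-type pericytes and 9.38, 9.55, 9.46 and 9.36 in wild-type endothelial cells. Knockout pericytes read 9.45, 9.50, 9.36 and 9.35, and knockout endothelial cells 9.28, 9.45, 9.08 and 9.55. These 4 groups overlapped throughout. The difference of pericytes from endothelial cells was -0.09 in wild type, with a 95% interval of -0.31 to 0.14, and 0.08 in knockout, with an interval of -0.15 to 0.30.
Aldoa read 10.05, 10.06, 9.46 and 9.95 in wild-type pericytes and 10.05, 10.23, 9.99 and 9.92 in wild-type endothelial cells. Its difference was -0.17, with an interval of -0.42 to 0.08, in wild type and -0.03, with an interval of -0.29 to 0.22, in knockout. Wild-type pericyte replicate 3 was the lowest of the 16 arrays for Aldoa, and without it the wild-type Aldoa difference was -0.03.
Pgk1 was less even. On its bright probe (ILMN_2651886) wild-type pericytes read 9.68, 8.57, 8.87 and 9.51, so replicates 2 and 3 were low, and wild-type endothelial cells read 9.71, 9.33, 9.42 and 9.54. The difference of -0.34 did not pass (interval -0.73 to 0.05, limma, adjusted p = 0.167), but without wild-type pericyte replicate 1 it was -0.52 and passed (limma, adjusted p = 0.0272). In knockout tumours Pgk1 differed by -0.18 (interval -0.57 to 0.21). The other Pgk1 probes were dim: ILMN_1226872 ranged from 6.99 to 7.32, and ILMN_2797973 from 6.76 to 7.11, below the median on every array. Mouse Ldha, Pgk1 and Aldoa have processed pseudogenes, and the probe sequences were not used here, so a share of signal from such copies was not tested.

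Pdk1, whose kinase activity slows entry of pyruvate into the citric acid cycle, was near the array median everywhere. It read 7.06, 6.94, 7.14 and 7.09 in wild-type pericytes, 7.03, 7.07, 6.98 and 7.07 in knockout pericytes, 7.26, 7.16, 7.13 and 7.23 in wild-type endothelial cells, and 7.18, 7.03, 7.19 and 7.09 in knockout endothelial cells. It lay above the median on 3 of 16 arrays, all of them endothelial. In a fit of all 24040 probes the wild-type pericytes differed from the endothelial cells by -0.14 (SE 0.06, limma, adjusted p = 0.102).

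**Figure D2:**
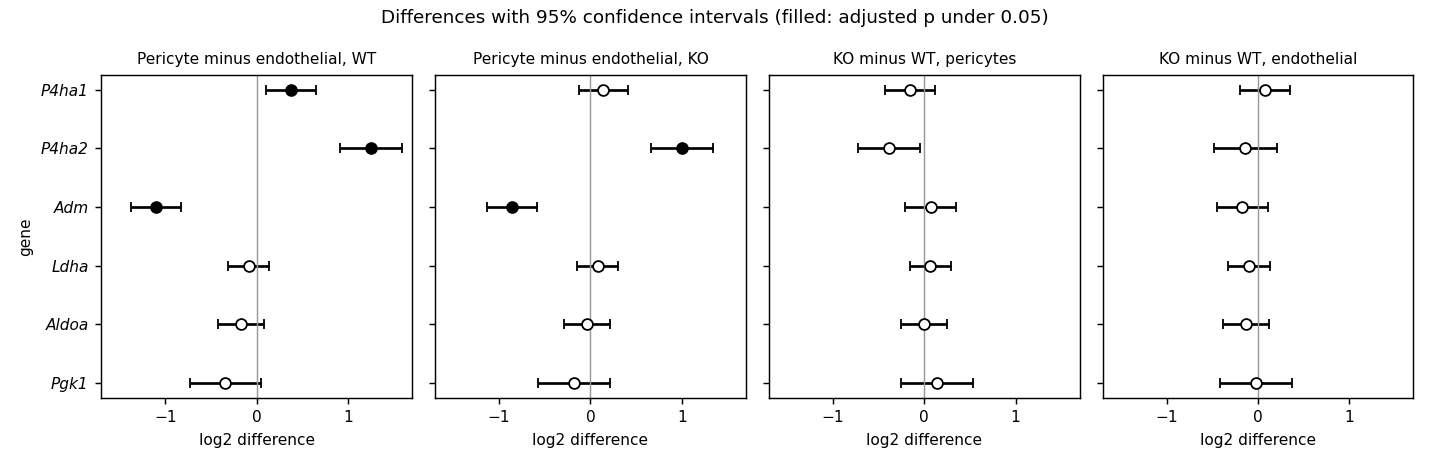
Log2 differences (x axis) of the 6 tested genes with 95% confidence intervals in 4 comparisons, from limma on 16 arrays; filled points have an adjusted p under 0.05. P4ha2 at 1.25 and 1.00 and Adm at -1.10 and -0.86 are filled in both cell type comparisons, P4ha1 at 0.37 in wild type, and no point is filled for knockout against wild type.

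Loss of endosialin was compared within each cell type to ask whether it changes the genes in the cells that normally carry it or in the neighbouring vessel lining. None of the 6 tested genes passed in pericytes (limma, 1 with an unadjusted p under 0.05), where 0.317% of all genes did and 7.13% had an unadjusted p under 0.05. None passed in endothelial cells (limma, 0 with an unadjusted p under 0.05), where the shares of all genes were 0.00959% and 3.71%, or for the difference between these effects (limma, 0 with an unadjusted p under 0.05), where they were 0.0192% and 3.74%. In pericytes the differences were 0.07 for Ldha (95% interval -0.16 to 0.29), -0.00 for Aldoa (interval -0.25 to 0.25), 0.14 for Pgk1 (interval -0.25 to 0.53) and 0.07 for Adm (interval -0.21 to 0.35). With the keratinocyte marker mean as a covariate the pericyte differences were 0.08 for Ldha, 0.25 for Aldoa, 0.25 for Pgk1 and 0.32 for Adm, and none passed (limma, adjusted p = 0.999 for each). In endothelial cells all 6 differences lay between -0.17 for Adm and 0.07 for P4ha1.

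P4ha2 was the gene with the unadjusted p under 0.05. Knockout pericytes lay 0.39 below wild type on the log2 scale (-0.39, SE 0.16, limma, adjusted p = 0.628), with an interval of -0.73 to -0.04. The arrays did not move together: knockout replicate 1, at 9.30, was above all wild-type pericytes, and replicates 2, 3 and 4, at 8.35, 8.55 and 8.51, were below all of them. The second probe (ILMN_2789562) also read highest in knockout replicate 1, at 8.97, and read 8.11, 8.22 and 8.23 in replicates 2, 3 and 4, against 8.55 to 8.80 in wild type. The dimmest probe (ILMN_1255122) did not separate them: knockout pericytes read 7.60, 7.18, 7.66 and 7.21 and wild-type pericytes 7.47, 7.97, 7.47 and 7.43.
Knockout replicates 2, 3 and 4 are the arrays with high keratinocyte markers. They also read 9.10, 8.88 and 9.65 for S100a9, listed as a granulocyte marker, against 6.75 in knockout replicate 1 and 6.75 to 7.29 in wild type. Of 8 named macrophage and granulocyte markers 3 had a probe, and S100a9 was the 1 that passed the filter. Alone it cannot tell granulocyte RNA from expression by other cells. The mean of 3 luminal epithelial markers was 8.33, 8.37 and 9.24 in knockout replicates 2, 3 and 4. It was 7.27 in replicate 1 and 6.88 to 7.99 in wild type. This mean rested mostly on Cdh1, at 9.83 over the knockout pericytes, with Krt18 at 7.59 and Krt8 at 7.49. Krt8 lay above the array median on 2 of 4 knockout pericyte arrays. Mast cell means were 8.52, 9.49 and 8.48 in knockout replicates 2, 3 and 4 against 6.93 in replicate 1. Wild-type replicates 3 and 4, at 9.04 and 9.91, were high as well. The part of these other markers in the P4ha2 difference was not tested. Of the 13 keratinocyte markers 12 rose in knockout pericytes. With the keratinocyte mean as a covariate the P4ha2 difference turned to 0.30 (SE 0.18, limma, adjusted p = 0.999). Without replicates 2, 3 and 4 it turned to 0.24, with replicate 1 as the lone knockout pericyte array. The covariate leans on the same array: over the 8 pericyte arrays P4ha2 and the keratinocyte mean had a Pearson correlation of -0.93. Without replicate 1 the P4ha2 difference was -0.59 and passed (SE 0.12, limma, adjusted p = 0.0143). The same settings moved the knockout cell type difference of P4ha2 from 1.00 to 1.80 with the covariate and to 1.63 without replicates 2, 3 and 4, and it passed in both.
P4ha1 differed by -0.16 between knockout and wild-type pericytes and did not pass (SE 0.13, limma, adjusted p = 0.875). Its difference was 0.00 with the keratinocyte covariate and -0.01 without knockout replicates 2, 3 and 4, again with replicate 1 as the lone knockout array. On its other probe (ILMN_1234565) the knockout pericytes read 7.48, 7.43, 7.33 and 7.21 and all lay below the wild-type pericytes, as 1.63% of all genes did, at -0.21, without passing (limma on all kept probes, adjusted p = 0.719).

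**Figure D3:**
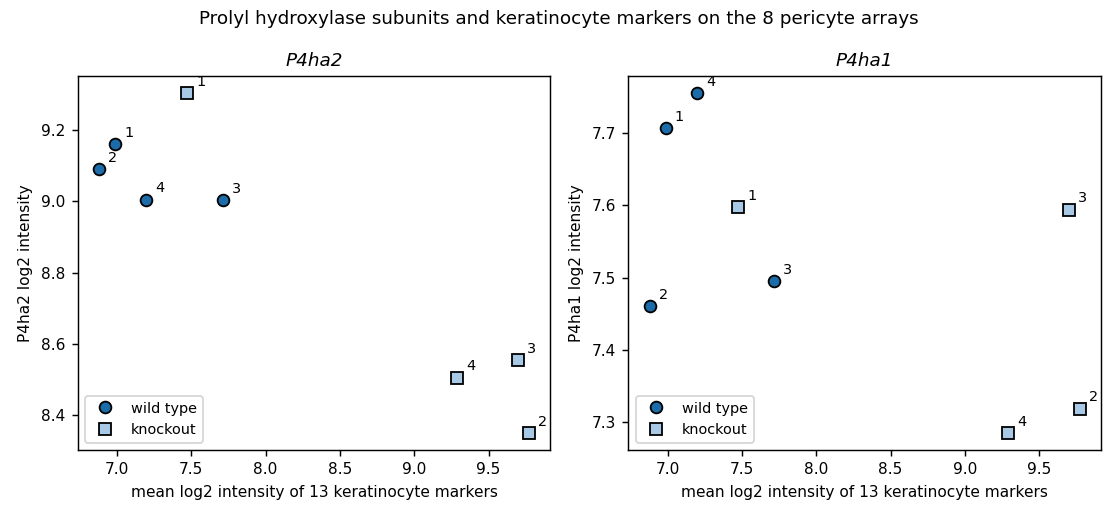
Log2 intensity of P4ha2 and P4ha1 (y axes, each with its own range that does not start at 0) against the mean log2 intensity of 13 keratinocyte markers (x axes) on the 8 pericyte arrays, numbered by replicate. Knockout replicates 2, 3 and 4 join keratinocyte means of 9.29 to 9.77 with P4ha2 values of 8.35 to 8.55, while knockout replicate 1, at 7.47 and 9.30, has a keratinocyte mean within the wild-type range and the highest P4ha2 value.

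Other genes of the oxygen response were described from lists by their counts in the comparison of pericytes with endothelial cells. Over all genes 17.1% were higher and 19.1% lower in wild-type pericytes, and 17.4% and 18.5% in knockout. In wild type 11 of 13 collagen-modifying enzymes were higher in pericytes and 0 were lower, with a median of 0.77 against -0.03 over all genes, and in knockout 8 were higher and 0 lower, with a median of 0.67. The 7 fibroblast markers moved the same way, with a median of 3.69 in wild type and 3.50 in knockout, and their part in the list's counts was not tested. P4hb, the protein disulphide isomerase that forms the beta subunit of the collagen hydroxylase, was 1.41-fold higher in wild-type pericytes (limma, adjusted p = 0.00223) and 1.57-fold higher in knockout. The collagen cross-linking oxidases Lox and Loxl1 were at least 4.86-fold and 3.68-fold higher in wild type (limma on the measured differences, adjusted p = 6.94e-10 and 1.92e-09). Both oxidases, and P4ha3 and Leprel2 of the same list, passed the filter through pericyte arrays alone. They are among the genes counted as higher in each genotype, so those counts and medians are not free of the filter. Plod1, a lysyl hydroxylase, and Leprel1, a prolyl 3-hydroxylase, differed by -0.27 and -0.16 and did not pass.

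Among 16 other glycolytic enzymes and transporters, 3 were higher and 5 lower in wild-type pericytes, beside 17.1% and 19.1% of all genes. The median was -0.19. In knockout 3 were higher and 4 lower, beside 17.4% and 18.5% of all genes, with a median of 0.13. The neuronal-type enolase Eno2 was at least 1.86-fold higher in wild-type pericytes (limma on the measured difference, adjusted p = 3.87e-07). The glucose transporter Slc2a3 was at least 1.62-fold higher (limma on the measured difference, adjusted p = 5.86e-07). Eno2, Slc2a3 and Pfkfb4, the 3 that were higher, passed the filter through pericyte arrays alone. Pfkfb3, which was lower in wild type, passed it through endothelial arrays alone. The pyruvate kinase Pkm2 was 1.64-fold and the hexokinase Hk1 1.48-fold lower (limma, adjusted p = 2.68e-05 and 9.25e-04). The main glucose transporter of many cells, Slc2a1, stood at 9.23 ± 0.41 in pericytes and 9.40 ± 0.25 in endothelial cells of wild-type tumours (SD, n = 4 each) and did not pass (limma, adjusted p = 0.545).

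None of 10 HIF subunits, oxygen sensors and modulators passed in wild type (limma, 0 with an unadjusted p under 0.05). The share over all genes was 36.2%, and the median of the list was -0.08. In knockout 1 was higher and 1 lower, beside 17.4% and 18.5% of all genes. Hif1a differed by -0.11 in wild type and 0.05 in knockout and Egln1 by -0.16 and -0.01, without passing. Egln3, an oxygen sensor that is itself a HIF target, differed by -0.33 in wild type (limma, adjusted p = 0.212). Epas1, the alpha subunit abundant in endothelium, differed by -0.24 in wild type (limma, adjusted p = 0.165) and was 1.41-fold lower in knockout pericytes than in knockout endothelial cells (limma, adjusted p = 0.00457). Os9 was the gene that was higher in knockout pericytes, by 0.35 (limma, adjusted p = 0.00483), and Vhl did not pass in either genotype.

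Of 18 other HIF target genes tested, 5 were higher and 3 lower in wild-type pericytes, beside 17.1% and 19.1% of all genes, with a median of 0.16, and 9 were higher and 3 lower in knockout, with a median of 0.27, beside 17.4% and 18.5% of all genes. The vascular growth factor Vegfa was at least 2.55-fold higher in wild-type pericytes (limma on the measured difference, adjusted p = 1.13e-10). The chemokine Cxcl12 was at least 6.79-fold higher (limma on the measured difference, adjusted p = 2.04e-09). Both genes, and Car12, which was counted as higher in knockout, passed the filter through pericyte arrays alone. The placental growth factor Pgf was at least 2.05-fold lower and Ankrd37 2.15-fold lower (limma on the measured differences, adjusted p = 7.37e-07 and 1.86e-05). These 2 were higher in endothelial cells, as Adm was, and Pgf passed the filter through endothelial arrays alone.

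The receptor side of adrenomedullin was measured by Calcrl, its receptor, and Ramp2, the accessory protein that makes Calcrl an adrenomedullin receptor. Ramp2 stood at 9.51 ± 0.14 in wild-type endothelial cells and 7.30 ± 0.21 in wild-type pericytes (SD, n = 4 each), 4.63-fold lower in pericytes (limma, adjusted p = 7.92e-11). Calcrl stood at 8.28 ± 0.29 in pericytes and 8.27 ± 0.10 in endothelial cells of wild-type tumours and did not pass (SD, n = 4 each; limma, adjusted p = 0.977). Pam, which amidates the mature peptide, was 1.59-fold higher in wild-type pericytes (limma, adjusted p = 2.3e-05).

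Of 8 genes of the pyruvate dehydrogenase complex and its regulators, 1 was higher in wild-type pericytes, the subunit Pdha1 by 0.49 (limma, adjusted p = 0.0171). In knockout 0 passed (limma, 1 with an unadjusted p under 0.05). Over all genes 36.2% passed in wild type and 35.9% in knockout. The kinases related to Pdk1 did not pass, with Pdk2 at 0.17 and Pdk4 at -0.00 in wild type. Among 11 Bnip3 relatives and mitophagy genes 1 was higher and 3 were lower in each genotype. The shares of all genes were 17.1% and 19.1% in wild type and 17.4% and 18.5% in knockout. Bnip3l, the closest relative of Bnip3, differed by 0.00 in wild type (limma, adjusted p = 0.98) and was 1.19-fold lower in knockout pericytes than in knockout endothelial cells (limma, adjusted p = 0.0481). Bcl2 and Bnip2 were 1.67-fold and 1.60-fold lower in wild-type pericytes, and the autophagy gene Map1lc3a was 1.38-fold higher.

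Over these 7 lists together 79 genes were tested, and 0 passed for knockout against wild type in pericytes or in endothelial cells (limma, 9 and 5 of them with an unadjusted p under 0.05). Collagen-modifying enzymes had a median of -0.08 in knockout pericytes, with 11 of 13 negative, against -0.01 and 52.2% negative over all genes. Fibroblast markers had a median of -0.10 there, with 5 of 7 negative and 0 passing (limma, 0 with an unadjusted p under 0.05), and their part was not tested.

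**Figure D4:**
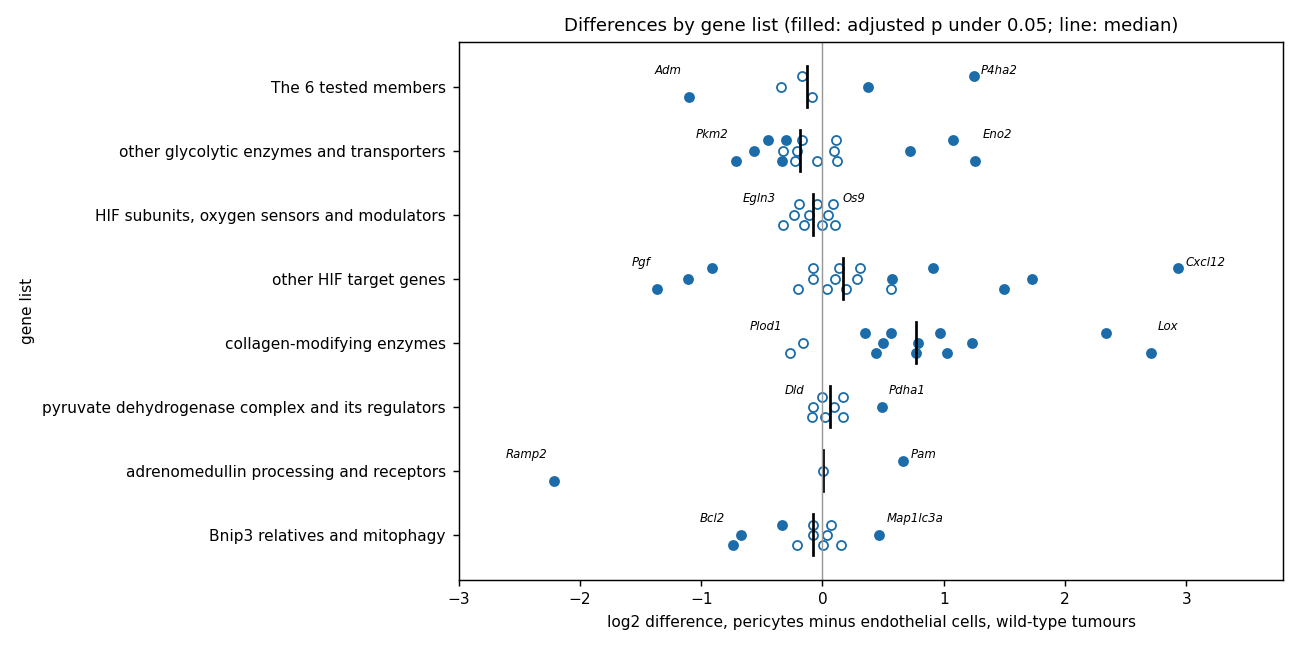
Log2 differences of pericytes from endothelial cells in wild-type tumours (x axis) for the 6 tested members and for 7 gene lists (rows), with 1 point per gene, filled for an adjusted p under 0.05, and a line at each list's median. The collagen-modifying enzymes have 11 of 13 points filled to the right, with a median of 0.77, and the HIF subunits and sensors have none filled.

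The members varied among themselves. Over the 16 arrays, after each cell type's mean was taken away, Pearson correlations between the 6 tested members lay between -0.10 for Ldha with P4ha1 and 0.58 for Ldha with Pgk1, with P4ha1 and P4ha2 at 0.57. Over the same values the genes most like Pgk1 were Ece1 at 0.92, Park7 at 0.88 and Pkm2 at 0.88, and those most like Ldha were LOC331507 at 0.90, 0910001L09Rik at 0.90 and Dynlrb1 at 0.89. Aldoa was most like Mad2l1bp at 0.85, Tfam at 0.84 and B4galt1 at 0.83. P4ha2 was most like A730069N07Rik at 0.85, 2210012G02Rik at 0.84 and Stx2 at 0.84, and P4ha1 like C730025P13Rik at 0.88, Atf7ip at 0.83 and Rab6 at 0.82. Adm was most like Glrx1 at 0.85, Prdx5 at 0.79 and Tmem165 at 0.78. These are the top 3 of 10426 genes for each member and share arrays and normalization.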

How the data were processed

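Amplified RNA of 16 sorted samples was read on arrays of the type Illumina MouseWG-6 v2.0. The authors deposited normalized log2 intensities per probe, and GenomeStudio and lumi are named per the submitters' processing notes; which transform and normalization were applied is not stated there. The repository's value table held the same values within 5e-09. From the deposited values, probes above their array's median on at least 4 of 16 arrays were kept, 14632 of 24040. Each of 10426 genes was represented by its kept probe with the highest mean. A group-means model over all 16 arrays was fitted with limma 3.58.1 in R 4.3.3, with 5 contrasts and Benjamini-Hochberg adjustment over all genes, at a threshold of 0.05. The code was tested on simulated data. The number of arrays limits the precision.

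The members and lists were chosen with earlier results of these data known. Named besides the members and Cd248 were, for each list, the 2 genes with the largest and the 2 with the smallest log2 difference between the cell types in wild type (some of these are given by count alone), and always Hif1a, Epas1, Egln1, Egln3, Vegfa, Slc2a1, P4hb, Calcrl, Ramp2, Bnip3l and Pdk4. Alternatives changed the filter, probe summary, normalization, variance model, arrays in the fit, replicate block and keratinocyte covariate, and left out each array in turn.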

Additional observations from a re-analysis of the deposited data

Results flagged for a closer look

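In 3 of 48 tested groups of 4 arrays, 1 array lay far from the other 3 by Dixon's criterion, which chance meets in about 1 in 20 groups. P4ha2 probe ILMN_2789562 read 8.97 in knockout pericyte replicate 1 and 8.11 to 8.23 in the others. P4ha2 probe ILMN_1255122 read 7.97 in wild-type pericyte replicate 2 and 7.43 to 7.47 in the others. Pgk1 probe ILMN_2651886 read 9.02 in knockout pericyte replicate 4 and 9.36 to 9.41 in the others.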

How the results depend on the processing

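The number of members that passed was 3 for pericytes against endothelial cells in wild type and 2 in knockout, and 0 in the other comparisons. Leaving out 1 array at a time gave 2 to 3 in wild type, 2 in knockout, 0 to 1 for knockout against wild-type pericytes, where P4ha2 passed without knockout pericyte replicate 1, and 0 in the other comparisons. With the keratinocyte mean as a covariate, 1 passed in knockout, since Adm no longer did. P4ha2 passed in both cell type comparisons under all 29 alternatives and Adm in wild type under all 29. For knockout against wild-type pericytes P4ha2 turned sign under 2 of 29 alternatives, the covariate and the omission of knockout replicates 2, 3 and 4. These also turned its difference of effects from -0.25 to 0.43 and 0.38, and both lean on knockout pericyte replicate 1. The cause was not tested.

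Over all genes the count for knockout against wild-type pericytes was 33 and ranged from 1 to 130. It was 14 without a filter, 7 with a stricter filter, 16 with a trended robust variance, 96 with array weights, and 1 with the covariate, with only the 8 pericyte arrays or without knockout replicates 2, 3 and 4. The difference of effects gave 2, and 1 to 53 under the alternatives, the effect in endothelial cells 1, and 1 to 2. Pericytes against endothelial cells in knockout gave 3743 of 10426, and 2000 to 5261 under the alternatives, which did not all test the same number. It was 2467 of 5889 with the stricter filter and 2000 of 10426 with the covariate.

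Same-numbered arrays were compared after each group's mean was taken away. In wild type, pericytes and endothelial cells of replicates 1 to 4 correlated at 0.43, 0.12, 0.09 and 0.04. The highest correlation of the same pericyte array with another number was 0.03, 0.09, 0.08 and 0.01, lower each time. In knockout the same-numbered values were 0.22, 0.19, 0.17 and 0.03, against -0.02, 0.01, 0.02 and 0.09, so replicate 4 alone fell short. Same-numbered pericytes of wild type and knockout, which cannot share a tumour, correlated at 0.45, -0.08, -0.03 and 0.02. The highest values with another number were -0.15, 0.12, 0.23 and 0.28. The value for replicate 1 was thus as high across genotypes as within wild type. The sample titles of both cell types are numbered with the same spacing in each genotype. The labels do not say whether same-numbered samples share a tumour, and they were not taken as pairs. A random block joined same-numbered arrays within a genotype, while a fixed block joined them across genotypes as well, which does not model a shared tumour. With either block, 3 and 2 members passed between cell types and 0 in the other comparisons. Pdk1 and dim probes near the array median have limited precision.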
